A study of Mus musculus with 6 samples.

Results

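The genes described here encode the enzymes, nuclear receptors and export pumps that handle foreign compounds and retinoids in the intestinal epithelium. They were taken by symbol: every gene whose name begins with Ugt1a, Ugt2, Gsta, Gstm, Gstt, Sult1, Ces1, Ces2, Cyp2b, Cyp2c, Cyp2d, Cyp2j, Rdh, Aldh1a or Nr1i, together with Nqo1, Por, Ephx1, Ephx2, Abcb1a, Abcc2 and Abcg2. The array's probe table gave a single such symbol to 116 of 34945 single-symbol probe sets, which stand for 90 of the 18193 genes tested. Por and the Ugt1a genes had no probe set with one symbol and were not analysed here by gene. No filter on low values was applied, so all 90 genes entered the test.

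Expression was measured on Affymetrix 3' arrays in small intestinal stem cells of 6 mice whose Lgr5 gene carries an EGFP and creERT2 cassette. Lgr5 marks stem cells at the crypt base, and cells with high GFP were sorted. There were 3 mice given DBZ, an inhibitor of the gamma-secretase that activates Notch receptors, and 3 given the DMSO vehicle, all collected after 24 h. Titles assign the groups, and the description field, which names DMSO for every array, contradicts the titles of the 3 DBZ arrays. Each array is 1 mouse, the mice of both groups carry the cassette, and the labels name no strain background, age or sex. The DBZ dose is not used, since its printed unit of mol per kg has probably lost a prefix.

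Drug metabolism runs in steps. Cytochromes P450 oxidise a compound and esterases or epoxide hydrolases cleave it. Transferases then attach glucuronic acid, sulfate or glutathione, and pumps of the ABC family export the product into the gut lumen. The nuclear receptors Nr1i2 (PXR) and Nr1i3 (CAR) switch many of these genes on when ligands enter the cell. Retinoids use related enzymes: several retinol dehydrogenases of the Rdh group make retinal from retinol, and several Aldh1a enzymes make retinoic acid from retinal. In the intestine most of this machinery is stronger in absorptive enterocytes than in crypt cells.

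Values are the deposited intensities, in arbitrary units, and array medians lay between 44.9 and 46.3. Differences are log2 fold changes of DBZ minus vehicle on log2(intensity + 16), which understates changes of dim genes. They were tested with limma over all genes, with Benjamini-Hochberg adjustment and a threshold of 0.05. An exact permutation test of a single gene cannot go below p = 0.1 with 3 arrays against 3. As a check of treatment, the Notch targets Olfm4 and Hes1 fell by 6.63 and 0.82 (limma, adjusted p = 0.00042 and 0.039). Of 5 listed targets 4 fell (80%, against 1.52% of all genes), with Nrarp at -1.89 and Dtx1 at -0.67. The list was chosen with earlier results of these data known. The Dtx1 call was lost without any 1 array, and that of Hes1 without DBZ replicate 3 or any 1 vehicle replicate. All 8 epithelium markers and all 6 stem cell markers lay above the median gene. Other cell types were present too, and several of them moved with the groups. Of 11 fibroblast and smooth muscle markers 6 rose, and their summed intensity was 42082, 44650.0 and 49346 in DBZ arrays, against 19839, 24571 and 28975 in vehicle arrays. Of 6 measured adipocyte markers 3 rose, with sums of 8009.9, 5389 and 12776 in DBZ arrays, against 1869, 3255 and 1535 in vehicle arrays. Goblet cell markers rose in 3 of 6 cases, with sums of 92814 to 116811 in DBZ and 69542 to 76965 in vehicle arrays. Enteroendocrine sums were 4328 to 11252 in DBZ and 2238 to 2690.5 in vehicle arrays, and endothelial sums 791 to 909 in DBZ and 557 to 644 in vehicle arrays. Lymphocyte sums were lower, at 1524 to 2810.4 in DBZ and 2913 to 5731 in vehicle arrays. The neutrophil genes S100a8 and S100a9 rose, at 4.97 and 4.82 (limma, adjusted p = 0.029 and 0.033). They are 2 of 6 measured neutrophil and macrophage markers, of which Csf1r stood at -0.34. The sums of these 6 overlapped, at 2176 to 8259 in DBZ and 1802 to 2564 in vehicle arrays. The part of these cell types in the results below was not tested. Signal at the 3' end of the actin control transcript over that at its 5' end, which rises as RNA degrades, was 1.51 to 1.57 in DBZ and 1.61 to 2.22 in vehicle arrays. The actin ratio did not overlap between the groups. That of the Gapdh control did, with a highest value of 1.09 in DBZ arrays and a lowest of 1.07 in vehicle arrays. The part of RNA quality in the results below was not tested.

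Of the 90 genes 7 fell and 2 rose. Rdh7, Ugt2b35, Ugt2b5, Ugt2b36, Nqo1, Ces1e and Ces2g fell, and Aldh1a2 and Gstm5 rose. Together these 9 are 10% of the members, against 5.34% of all genes tested. Falls made up 7.78% of the group, against 1.52% over all, and rises 2.22%, against 3.82%. Groups did not overlap for 29 members that were lower in DBZ (32.2%, against 15.8% of all genes) and for 6 that were higher (6.67%, against 17.3%), or 35 of 90 in either direction, against 33.2%. The members' median log2 fold change was -0.11, against -0.017 for all genes, and 64 of 90 values were negative. Among the 41 members whose mean lay above the median gene, the median was -0.31, against 0.019 for all such genes, with 4 falls (9.76%, against 2.34%) and 2 rises (4.88%, against 5.99%). Of these 41, 14 were lower in DBZ without overlap (34.1%, against 17.2%) and 5 higher (12.2%, against 23.8%). The cut, an intensity of about 114, uses all 6 arrays, so these counts are not free of the difference tested. Rdh7, Ugt2b5 and Nqo1, with DBZ means of 38.4, 54.5 and 91.2, entered through their vehicle arrays. Ugt2b35, at 115 in DBZ, lay near the cut. Aldh1a2, with a vehicle mean of 77.0, entered through its DBZ arrays. The other 49 members were dim, and 3 of them fell: Ugt2b36, Ces1e and Ces2g. No detection calls were used, so a dim value may be background. All 9 genes past the test had 1 probe set each, none with the _s_at or _x_at suffix of probe sets that can bind related transcripts. Tested by probe set, with p adjusted over 34945 probe sets, 2 of the 116 rose, against 2.12% of all, and 5 fell, against 0.747%, or 7 in all, against 2.87%. Ugt2b5 and Ces1e did not pass there.

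These calls rest on few arrays. Without DBZ replicate 1 the test called 3 members higher and 10 lower, with 1305 and 727 over all genes (11.2% called). Without DBZ replicate 2 it called 1 and 0 members, with 172 and 45 over all genes (1.19%). Without DBZ replicate 3 it called 2 and 4 members, with 279 and 73 over all genes (1.93%). Without vehicle replicate 1 it called 0 and 1, and without vehicle replicate 2 or 3 it called none (limma, against 27 and 23 members with an unadjusted p under 0.05). The counts over all genes dropped in the same fits, to 49, 19 and 38 of 18193 without vehicle replicate 1, 2 and 3. The 9 genes kept their direction each time.

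**Figure D1:**
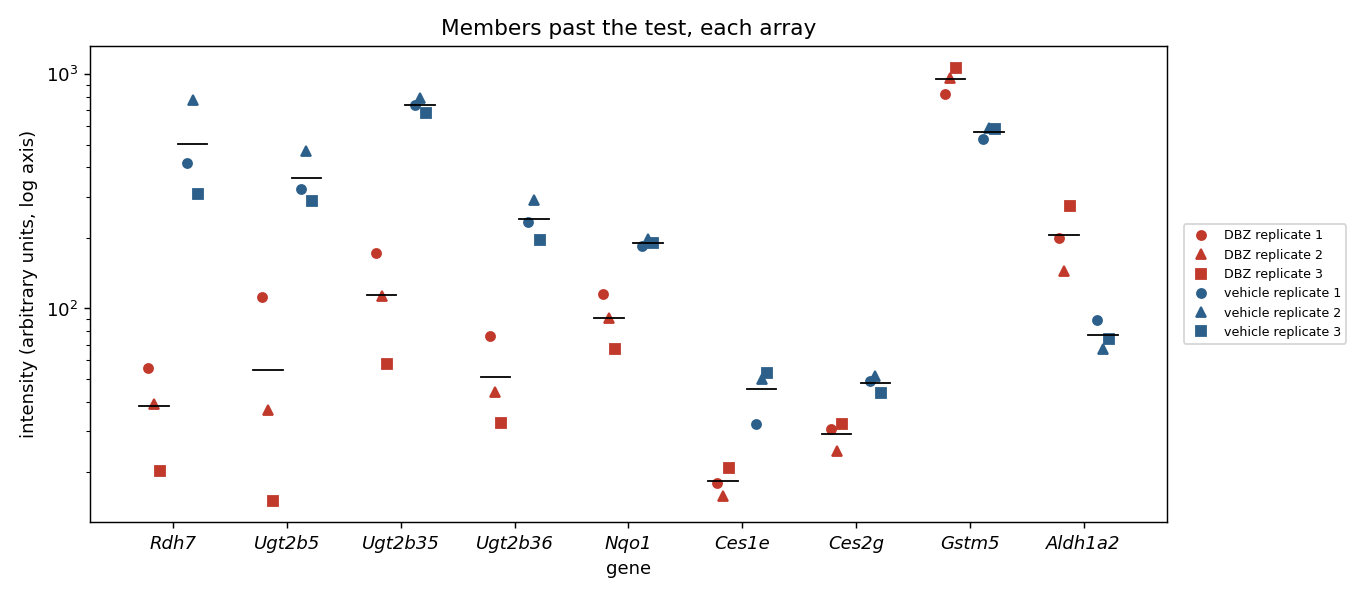
Intensity (log axis, arbitrary units) of the 9 members past the test, for each DBZ array (red, left) and each vehicle array (blue, right), with black bars for group means. The 7 genes that fell have all DBZ arrays below all vehicle arrays, and DBZ replicate 3 is the lowest array for Rdh7, Nqo1 and the Ugt2b genes, at 20.2 for Rdh7.

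**Figure D2:**
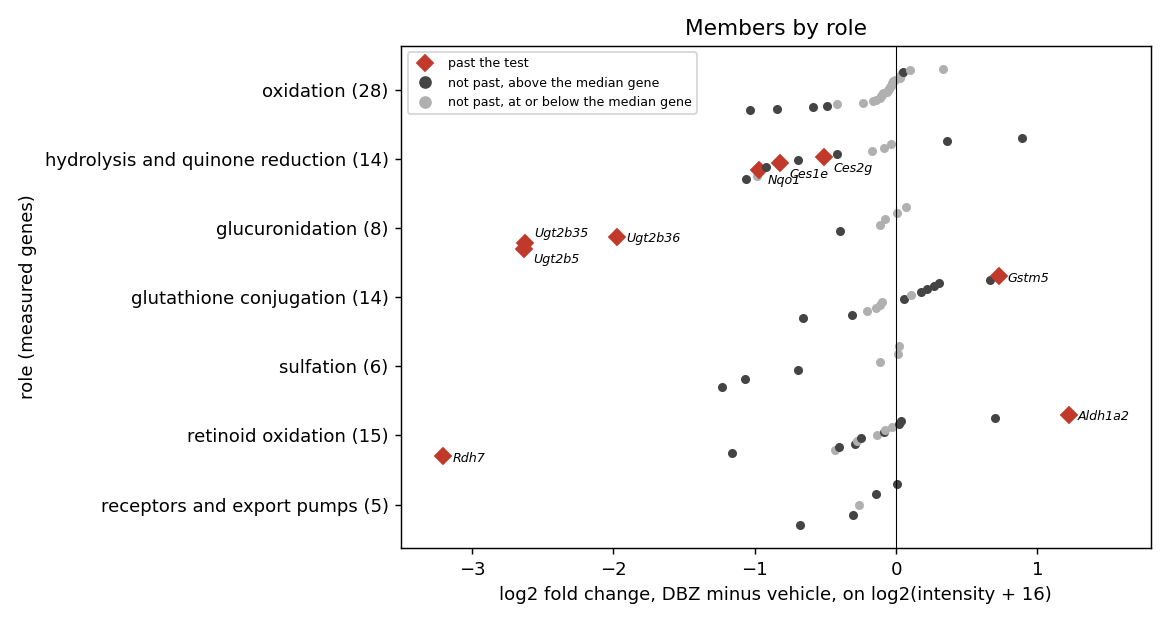
Log2 fold change of each of the 90 members, grouped by role with the number of measured genes. Red diamonds passed the test, dark points did not pass and lie above the median gene, and pale points did not pass and are dimmer. The retinol dehydrogenase gene Rdh7, at -3.20, lies farthest to the left and Aldh1a2, at 1.22, farthest to the right.

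Receptors and pumps did not pass the test (0 of 5 by limma, 1 with an unadjusted p under 0.05, Nr1i2). Nr1i2, the xenobiotic sensor PXR, had intensities of 287, 246 and 157 in DBZ replicates 1, 2 and 3, against 345, 372 and 389 in vehicle replicates 1, 2 and 3. All DBZ arrays lay below all vehicle arrays, with a log2 fold change of -0.68 ± 0.20 (SE, n = 3; limma, adjusted p = 0.10). Its second probe set was at -0.43. The call was gained without DBZ replicate 1 (limma, adjusted p = 0.046) and with array weights (0.034). These settings also called more of all genes, 11.2% and 14.8%, against 5.34% in the main test. Nr1i3, the related receptor CAR, was dim at 30.7 ± 5.65 in DBZ and 39.8 ± 4.36 in vehicle arrays (SD, n = 3) and stood at -0.26 ± 0.11 (SE; limma, adjusted p = 0.20). Of 23 listed regulators of xenobiotic genes 21 were measured. Of these 1 fell (4.76%, against 1.52% of all genes) and 0 rose (against 3.82%). Groups did not overlap for 9 that were lower in DBZ (42.9%, against 15.8%) and for 1 that was higher (4.76%, against 17.3%). By limma 8 had an unadjusted p under 0.05, all lower, against 2051 lower of 18193 genes over all. The gene that fell was Ahr, the aryl hydrocarbon receptor, at 223 ± 5.53 in DBZ and 287 ± 13.5 in vehicle arrays (SD, n = 3), or -0.34 ± 0.061 (SE; limma, adjusted p = 0.038). Its call was lost without any 1 array other than DBZ replicate 1, and 17 of the 21 genes were negative, against 9930 of 18193 over all.

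The 3 pump genes lay above the median gene and overlapped between the groups. Abcg2, which exports sulfated and other conjugates, had intensities of 5554, 5654 and 4802 in DBZ arrays, against 5699, 5635 and 6287 in vehicle arrays. Its groups overlapped, and the difference of -0.14 had a 95% interval of -0.35 to 0.073. Abcb1a, the gene of P-glycoprotein, had 5511, 8549.7 and 3942 in DBZ replicates 1, 2 and 3, against 5841, 8503 and 3701 in vehicle replicates 1, 2 and 3. Replicate 2 was the highest and replicate 3 the lowest in both groups. The difference of 0.0050 had a wide interval, -0.92 to 0.93. Abcc2, which exports glucuronides and glutathione conjugates, had the same order of arrays, at 213, 224 and 75.1 in DBZ arrays, against 188, 349 and 111 in vehicle arrays, and its probe set is an _s_at one. It stood at -0.30 ± 0.51 (SE; limma, adjusted p = 0.75).

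Oxidising enzymes showed no call among 28 measured Cyp2 genes (limma, 2 with an unadjusted p under 0.05), with a median of -0.051. Only 5 of the 28 lay above the median gene, all of them from the Cyp2c, Cyp2d and Cyp2j families, and 4 of these 5 were negative. Cyp2j6, an epoxygenase of arachidonic acid, had 285, 235 and 267 in DBZ replicates 1, 2 and 3, against 310.1, 437 and 379.7 in vehicle replicates 1, 2 and 3. Its groups did not overlap, at -0.49 ± 0.14 (SE, n = 3; limma, adjusted p = 0.090), and its second probe set was at -0.62. Cyp2d26 and Cyp2c55 varied widely within each group. Cyp2d26 had 523, 1328 and 329 in DBZ replicates 1, 2 and 3, against 833, 2006 and 818 in vehicle replicates 1, 2 and 3. Cyp2c55, an epoxygenase and hydroxylase of fatty acids, had 388, 1149 and 68.4 in DBZ replicates 1, 2 and 3, against 582, 1855 and 289 in vehicle replicates 1, 2 and 3. In both genes replicate 2 was the highest array of each group, and the Cyp2c55 interval ran from -3.64 to 1.57. Cyp2c65, on an _s_at probe set, stood at -0.59 ± 0.28, and Cyp2c68 at 0.051 ± 0.20 (SE; limma, adjusted p = 0.25 and 0.90). Of the Cyp2b genes, the classical targets of CAR, 0 of 4 lay above the median gene and none passed (limma, 0 with an unadjusted p under 0.05). Cyp2b10 was at 59.9 ± 6.44 in DBZ and 68.4 ± 13.9 in vehicle arrays (SD, n = 3).

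Hydrolases and the quinone reductase leaned lower: of 14 measured genes 3 fell (21.4%, against 1.52% of all genes) and 0 rose, with a median of -0.60. All DBZ arrays lay below all vehicle arrays for 10 of them (71.4%, against 15.8%). Nqo1, which reduces quinones to less reactive hydroquinones and is a classical target of the factor Nrf2, had intensities of 115, 91.3 and 67.2 in DBZ replicates 1, 2 and 3, against 185, 198 and 189.9 in vehicle replicates 1, 2 and 3. Vehicle arrays lay close together and every DBZ array lay below them, at a log2 fold change of -0.97 ± 0.16 (SE, n = 3; limma, adjusted p = 0.034). Of 8 measured genes of a list of other Nrf2 targets 0 passed (limma, 2 with an unadjusted p under 0.05). Gsr, glutathione reductase, was at -0.40 ± 0.14 and Osgin1 at -0.25 ± 0.089 (SE; limma, adjusted p = 0.14 and 0.15).

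The carboxylesterases, which cleave ester drugs and lipids, lie in 2 tandem runs of genes. All 5 measured Ces2 genes had every DBZ array below every vehicle array, against 15.8% of all genes. Of the 5, 1, Ces2g, passed the test (20%, against 5.34% of all genes). Ces2g had 30.5, 24.6 and 32.0 in DBZ arrays, against 49.0, 51.5 and 43.6 in vehicle arrays, and fell by 0.51 (limma, adjusted p = 0.037). It is dim in both groups, so the size of this fall is uncertain, and with 64 added to each intensity it did not pass (limma, adjusted p = 0.055). Ces2a and Ces2e were bright. Ces2a had 1131, 889 and 347 in DBZ replicates 1, 2 and 3, against 1389, 2061 and 1153 in vehicle replicates 1, 2 and 3, and Ces2e had 1876, 1701 and 827 in DBZ replicates 1, 2 and 3, against 2084, 2478 and 2209.7 in vehicle replicates 1, 2 and 3. In both, DBZ replicate 1 was near the vehicle arrays and DBZ replicate 3 far below them. The log2 fold changes were -1.06 ± 0.45 and -0.70 ± 0.30 (SE, n = 3; limma, adjusted p = 0.20 and 0.21). Ces2b stood at -0.98 ± 0.29 and Ces2f, dim, at -0.089 ± 0.056 (SE).

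In the Ces1 run members differed in direction. Ces1e had 18.1, 15.9 and 20.9 in DBZ arrays, against 32.0, 50.1 and 53.3 in vehicle arrays, dim values with a fall of 0.82 (limma, adjusted p = 0.041). The call was lost with quantile normalization (limma, adjusted p = 0.052) and with 64 added to each intensity (0.071). Ces1f, next to it and measured by an _s_at probe set, had 419, 464 and 401 in DBZ replicates 1, 2 and 3, against 779.9, 1129.9 and 630.2 in vehicle replicates 1, 2 and 3. Its groups were apart, at -0.92 ± 0.21 (SE, n = 3; limma, adjusted p = 0.058). Ces1d, a triglyceride hydrolase known from liver and fat, lies on the other side of Ces1e and was higher. It had 271, 362 and 473 in DBZ replicates 1, 2 and 3, against 158, 218 and 187 in vehicle replicates 1, 2 and 3, or 0.89 ± 0.21 (SE; limma, adjusted p = 0.064), and its other probe sets were at 0.77 and 0.47. Summed adipocyte markers were also higher in every DBZ array, as given above. Within the DBZ arrays these sums were lowest in replicate 2, and Ces1d in replicate 1. The part of adipocytes in the Ces1d values was not tested. The epoxide hydrolases overlapped between groups, with Ephx1 at 0.36 ± 0.15 and Ephx2 at -0.42 ± 0.20 (SE; limma, adjusted p = 0.19 and 0.24).

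**Figure D3:**
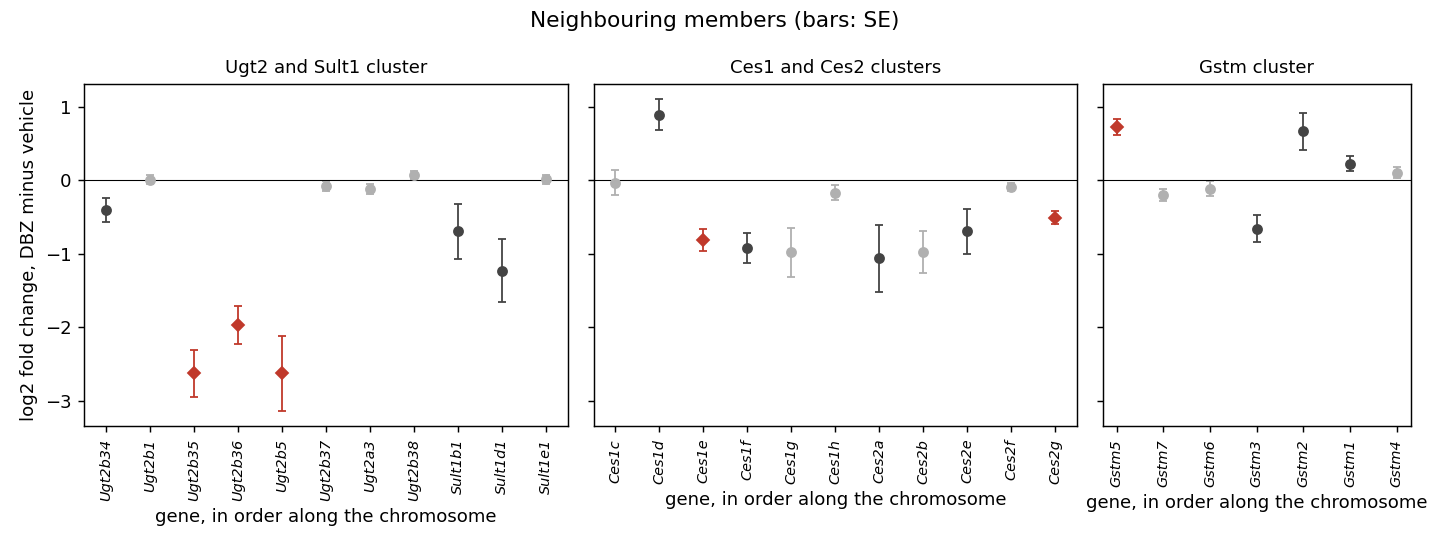
Log2 fold change (DBZ minus vehicle, bars are SE) of members that neighbour each other, in order along the chromosome, for the Ugt2 and Sult1, the Ces1 and Ces2, and the Gstm genes. Red diamonds passed the test, dark and pale points did not and lie above or not above the median gene. Ugt2b35, Ugt2b36 and Ugt2b5 lie side by side at -2.63, -1.97 and -2.63, while Ugt2b1 and Ugt2b37 on either side are near 0 and dim.

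Glucuronidation genes held the densest group of falls, 3 of 8 measured Ugt2 genes (37.5%, against 1.52% of all genes). In the reference gene table Ugt2b35, Ugt2b36 and Ugt2b5 follow each other with no other protein-coding gene between them. Ugt2b35 had intensities of 173, 113 and 58.2 in DBZ replicates 1, 2 and 3, against 739.7, 789 and 681 in vehicle replicates 1, 2 and 3. Ugt2b36 had 76.3, 43.8 and 32.6 in DBZ replicates 1, 2 and 3, against 234, 290.1 and 196 in vehicle replicates 1, 2 and 3. Ugt2b5 had 112, 36.9 and 15.2 in DBZ replicates 1, 2 and 3, against 323, 468 and 288 in vehicle replicates 1, 2 and 3. In all 3 genes DBZ replicate 1 was the highest DBZ array, DBZ replicate 3 the lowest, and all of them lay below the vehicle arrays. The log2 fold changes were -2.63 ± 0.32, -1.97 ± 0.26 and -2.63 ± 0.51 (SE, n = 3; limma, adjusted p = 0.023, 0.025 and 0.046). Levels in DBZ arrays reach the range of dim probe sets, and with a pseudocount of 1 the fold changes were -2.80, -2.29 and -3.10. With a pseudocount of 64 Ugt2b5 was at -1.90 and no longer passed (limma, adjusted p = 0.057). Ugt2b34, at the edge of the same run, was bright at 5692, 5126 and 3705 in DBZ arrays, against 6199, 6729.7 and 5966 in vehicle arrays, and stood at -0.40 ± 0.16 (SE; limma, adjusted p = 0.19). It was measured by an _s_at probe set, and its other probe set was at -0.14. The remaining Ugt2 genes, Ugt2b1, Ugt2b37, Ugt2b38 and Ugt2a3, had means of at most 18.4 in either group.

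The promoters of the 3 neighbouring genes that fell are shown because these genes moved together. They are the 250 bases before each gene's start, from RefSeq on GRCm38.p6, written 5′ to 3′ on the gene's strand. Capitals mark stretches of at least 12 bases that are the longest shared by 2 of the promoters: 14 bases of Ugt2b35 and Ugt2b36, and 24 bases of Ugt2b36 and Ugt2b5. Ugt2b35 is at chr5:87000610-87000859 on the plus strand, Ugt2b36 at chr5:87092556-87092805 and Ugt2b5 at chr5:87140341-87140590, both on the minus strand.
Ugt2b35: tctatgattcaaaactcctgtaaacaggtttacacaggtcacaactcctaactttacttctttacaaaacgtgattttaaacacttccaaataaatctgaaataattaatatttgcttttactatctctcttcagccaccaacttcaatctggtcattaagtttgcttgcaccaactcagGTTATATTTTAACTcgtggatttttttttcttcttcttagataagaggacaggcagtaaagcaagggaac
Ugt2b36: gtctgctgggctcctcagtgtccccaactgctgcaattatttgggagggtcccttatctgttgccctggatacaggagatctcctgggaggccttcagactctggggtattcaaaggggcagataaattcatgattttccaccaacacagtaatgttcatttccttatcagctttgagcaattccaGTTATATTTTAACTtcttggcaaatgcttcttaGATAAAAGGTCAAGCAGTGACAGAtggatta
Ugt2b5: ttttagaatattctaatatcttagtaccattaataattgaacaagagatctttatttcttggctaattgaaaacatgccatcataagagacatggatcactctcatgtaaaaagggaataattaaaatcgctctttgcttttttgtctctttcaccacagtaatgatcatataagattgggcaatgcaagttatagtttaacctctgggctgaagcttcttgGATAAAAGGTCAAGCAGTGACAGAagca
In a global alignment 57.9% of aligned bases were identical between Ugt2b35 and Ugt2b36, 69.4% between Ugt2b35 and Ugt2b5 and 69.6% between Ugt2b36 and Ugt2b5. The stretch of 24 bases ends 8 bases before the start of Ugt2b36 and 5 before that of Ugt2b5.

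Promoter entries of 300 bases, reaching 50 bases past the start, were found for 75 of the 90 members, 89 in all. They were searched on both strands for binding motifs, which describes letters and not binding. The antioxidant response element TGACNNNGC, the site of Nrf2, was in 10.1% of member promoters and 12.4% of all 32851. In this window it was in 0 of the 7 genes that fell, Nqo1 included, and in both genes that rose, Aldh1a2 and Gstm5. TGGGAA, the core site of the Notch partner RBPJ, was in 29.2% and 25.6%, and the N-box CACNAG of HES repressors in 38.2% and 42.5%. Of the 7 genes that fell, Nqo1 and Rdh7 held the RBPJ motif, and Ces1e, Rdh7 and Ugt2b35 held the N-box. TTTATNG, a CDX site, was in 13.5% and 10.9%, and TNGCGTG, the site of the aryl hydrocarbon receptor, in 5.62% and 5.07%. The direct repeats bound by nuclear receptors, spaced by 3 or 4 bases, and the HNF1 palindrome were in 0 of 89 member promoters. Over all 32851 promoters they were in 0, 9 and 3, in this order. Such strict patterns are too rare for their absence among the members to be read. CAAAGTCCA, a site of the hepatocyte factor HNF4, was in 4.49% of member promoters, against 0.475% of all, and these came from 4 genes. These were Sult1b1, Cyp2c65, Cyp2c68 and Cyp2c70, none past the test. The 3 of them above the median gene are shown with the motif in capitals, at chr19:39060880-39060908 (plus strand), chr19:39741160-39741188 and chr5:87536179-87536207 (both minus strand).
Cyp2c65: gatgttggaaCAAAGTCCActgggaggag
Cyp2c68: atcattgaaaCAAAGTCCAattggaagag
Sult1b1: gtgagcaggcCAAAGTCCAttcctggtgg

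Sulfotransferases gave no call among 6 measured Sult1 genes (limma, 2 with an unadjusted p under 0.05) and the 3 above the median gene were all negative. Sult1d1, which sulfates catecholamines and other small phenols, had 3268, 1509 and 968 in DBZ replicates 1, 2 and 3, against 3396, 4669 and 3951 in vehicle replicates 1, 2 and 3. DBZ replicate 1 lay close to the vehicle arrays, and DBZ replicates 2 and 3 far below. The log2 fold change was -1.23 ± 0.42 (SE, n = 3; limma, adjusted p = 0.14), and -1.84 on its second probe set. Without DBZ replicate 1, a fit that called 11.2% of all genes, it passed, at -1.70 (limma, adjusted p = 0.016). Sult1b1, next to it on the chromosome, had 3056, 1943 and 993 in DBZ replicates 1, 2 and 3, against 2808, 3048 and 2963 in vehicle replicates 1, 2 and 3, with the same order of DBZ arrays and overlapping groups. Sult1a1, a phenol sulfotransferase elsewhere in the genome, had 255, 223 and 395 in DBZ replicates 1, 2 and 3, against 508, 844 and 527 in vehicle replicates 1, 2 and 3. All its DBZ arrays lay below the vehicle arrays, with DBZ replicate 3 the highest of them, at -1.07 ± 0.27 (SE; limma, adjusted p = 0.073).

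**Figure D4:**
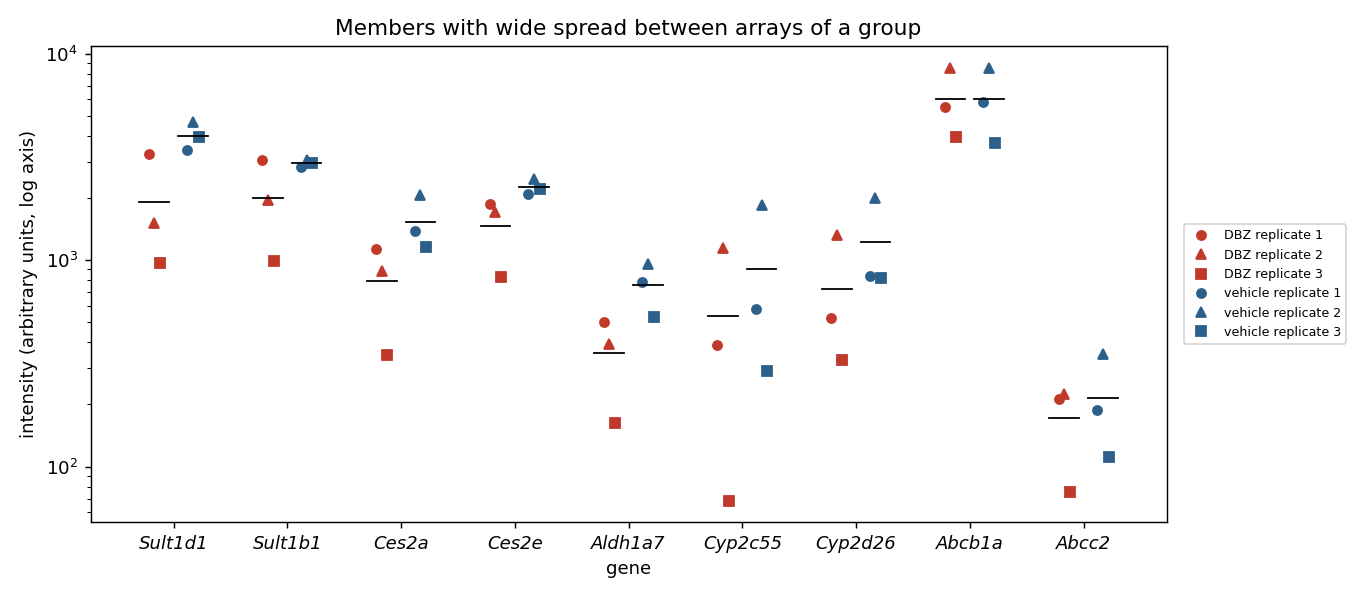
Intensity (log axis, arbitrary units) of 9 members with wide spread within a group, chosen after their values were seen, for each DBZ array (red, left) and vehicle array (blue, right), with bars for group means. Sult1d1, Sult1b1, Ces2a, Ces2e and Aldh1a7 have DBZ replicate 1 nearest to vehicle and DBZ replicate 3 lowest. Cyp2c55, Cyp2d26, Abcb1a and Abcc2 have replicate 2 highest and replicate 3 lowest in both groups.

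Enterocyte marker sums were lower in every DBZ array than in every vehicle array, though narrowly in DBZ replicate 1. None of 10 measured markers passed (limma, 4 with an unadjusted p under 0.05). Of the 10, 9 were negative, and 2, Fabp1 and the dim Lct, were lower without overlap (20%, against 15.8% of all genes). Apoa1 and Fabp2, bright and so heavy in the sums, overlapped at -0.19 and -0.041. The median of the 10 markers was -0.33. Their summed intensity was 76390.2, 71122 and 61859 in DBZ arrays, against 77519.9, 79246 and 76590.2 in vehicle arrays. It was lowest in DBZ replicate 3, as were the Ugt2b genes that fell, Ces2a and Sult1d1. Not all values followed this: the markers Apoa4 and Apob were highest in DBZ replicate 3, at 3613 and 8512. Sult1a1, Ces1e and Ces2g had their highest DBZ value there, at 395, 20.9 and 32.0. The part of the enterocyte markers in the falls was not tested. The arrays measured sorted cells in bulk, so fewer enterocyte-like cells in the sort and less of an RNA per cell cannot be told apart.

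Glutathione transferases differed in direction, with a median of 0.081. Among 14 there were 1 rise (7.14%, against 3.82% of all genes) and 0 falls (against 1.52%). Gstm5, of the mu class, had 822, 965 and 1065 in DBZ replicates 1, 2 and 3, against 529.9, 586 and 581 in vehicle replicates 1, 2 and 3. Every DBZ array lay above every vehicle array, at 0.73 ± 0.11 (SE, n = 3; limma, adjusted p = 0.028). Gstm2, in the same chromosomal run, had 199, 222 and 265 in DBZ arrays, against 86.5, 174 and 169 in vehicle arrays, at 0.67 ± 0.25 (SE; limma, adjusted p = 0.17). Gstm3, between them, had 116, 168 and 128 in DBZ arrays, against 249.5, 250.4 and 177 in vehicle arrays, at -0.66 ± 0.18 on an _s_at probe set (SE; limma, adjusted p = 0.083). Its other probe set was at -0.037, so the Gstm3 value depends on the probe set. Gstm1, on an _x_at probe set, stood at 0.22 ± 0.10 (SE). The theta class genes Gstt1, Gstt2 and Gstt3 were at 0.27, 0.30 and 0.18, with overlapping groups. The summed fibroblast and smooth muscle markers, of which 6 of 11 rose and Pdgfrb stood at -0.22, were also higher in every DBZ array, and their part in the Gstm5 values was not tested.

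Retinoid oxidation held both the farthest fall and the farthest rise, 1 of each among 15 measured genes. Each is 6.67%, against 1.52% of all genes for falls and 3.82% for rises. Rdh7, a dehydrogenase of retinols and steroids, had intensities of 55.9, 39.2 and 20.2 in DBZ replicates 1, 2 and 3, against 418, 778 and 309 in vehicle replicates 1, 2 and 3. DBZ replicates 2 and 3 lay below the lowest array median and DBZ replicate 1 above the highest, so DBZ levels were dim. Rdh7 averaged 38.4 ± 17.9 in DBZ and 501 ± 245 in vehicle arrays (SD, n = 3). The log2 fold change was -3.20 ± 0.39 (SE; limma, adjusted p = 0.023). It was -3.68 if 1 was added to each intensity and -2.39 if 64 was added. Its neighbours in the same run were dim or differed less. Rdh16 was at -0.43 ± 0.10 and Rdh16f2 at -0.28 ± 0.10 (SE; limma, adjusted p = 0.066 and 0.16), both dim. Rdh9, bright and on an _s_at probe set, had 1207, 1687 and 974 in DBZ arrays, against 1541, 1659 and 1305 in vehicle arrays, which overlap.

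Rdh10, the enzyme that makes retinal for retinoic acid synthesis in many tissues, was higher in DBZ arrays without passing. It had 844, 743 and 1148 in DBZ replicates 1, 2 and 3, against 539, 546 and 555 in vehicle replicates 1, 2 and 3, with no overlap, at 0.70 ± 0.16 (SE, n = 3; limma, adjusted p = 0.057), and 0.51 on its second probe set. Rdh14 overlapped, at 0.033 ± 0.095 (SE), and Rdh11 was at -0.29 on one probe set and 0.069 on the other.

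Of the 4 measured Aldh1a genes, Aldh1a2 rose. It had 199.9, 144 and 274 in DBZ replicates 1, 2 and 3, against 89.6, 67.3 and 73.9 in vehicle replicates 1, 2 and 3, at 1.22 ± 0.22 (SE, n = 3; limma, adjusted p = 0.039). All DBZ arrays lay above all vehicle arrays, with replicate 3 the highest and replicate 2 the lowest of the DBZ arrays. Aldh1a2 is known from mesothelium and stroma, and the summed mesothelium markers followed the same order of DBZ arrays, as did the adipocyte sums given above and those of neutrophil and macrophage markers. Their sums were 756, 489.5 and 1188 in DBZ arrays, against 430.1, 401 and 438 in vehicle arrays, with 0 of 6 past the test (limma, 4 with an unadjusted p under 0.05) and a median of 0.68. Of these 6 markers 5 lay below the median gene, and their differences ran from -0.12 for Krt5 to 2.16 for Upk3b, a uroplakin gene. Upk3b had 188, 47.0 and 290.4 in DBZ arrays, against 19.2, 20.9 and 18.1 in vehicle arrays. The part of any of these cell types in the Aldh1a2 values was not tested. With 64 added to each intensity Aldh1a2 no longer passed (limma, adjusted p = 0.068). Aldh1a1, the bright gene of this family in the sorted cells, had 3535, 4334 and 1852 in DBZ replicates 1, 2 and 3, against 3835, 4988 and 3429 in vehicle replicates 1, 2 and 3. Its groups overlapped, at -0.40 with a 95% interval of -1.19 to 0.39. Its neighbouring paralogue Aldh1a7 had 502, 394 and 163 in DBZ replicates 1, 2 and 3, against 782, 956 and 528 in vehicle replicates 1, 2 and 3, lower in all DBZ arrays, at -1.16 ± 0.43 (SE; limma, adjusted p = 0.15). Aldh1a3 overlapped, at 0.021 with an interval of -0.33 to 0.37.

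**Figure D5:**
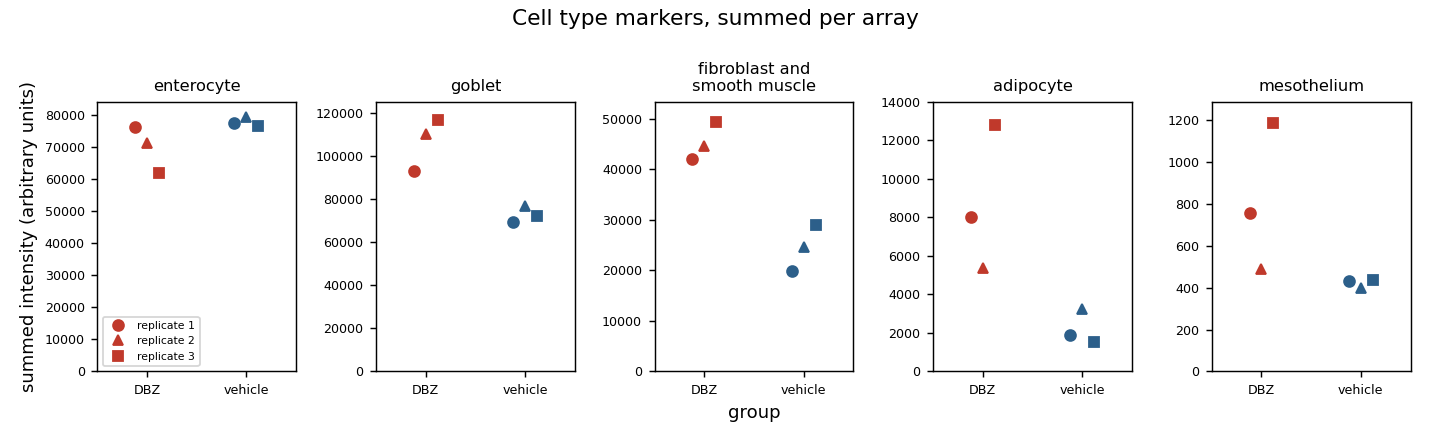
Summed intensity (arbitrary units, axes from 0) of cell type markers in each DBZ array (red, left) and vehicle array (blue, right), by replicate. Goblet, fibroblast and smooth muscle, adipocyte and mesothelium sums are higher in every DBZ array than in every vehicle array. Enterocyte sums are lower, narrowly in DBZ replicate 1, with 61859 in DBZ replicate 3.

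Other genes of the retinoid pathway were taken from a list of 25, of which 22 were measured, with a median of -0.13. Of these 3 fell (13.6%, against 1.52% of all genes) and 0 rose (against 3.82%). Isx, a homeobox repressor of carotenoid uptake and cleavage that retinoic acid induces, had 639.9, 713 and 769 in DBZ replicates 1, 2 and 3, against 1071, 1154 and 1168 in vehicle replicates 1, 2 and 3. All DBZ arrays lay below all vehicle arrays, at -0.67 ± 0.085 (SE, n = 3; limma, adjusted p = 0.024). Rbp7, a cellular retinol-binding protein, averaged 75.7 ± 33.9 in DBZ and 199 ± 8.18 in vehicle arrays (SD, n = 3), at -1.30 ± 0.26 (SE; limma, adjusted p = 0.047). Cyp26b1, which breaks down retinoic acid, was dim, with a difference of -0.45 ± 0.091 (SE; by limma, adjusted p = 0.048). The calls of Isx, Rbp7 and Cyp26b1 were each lost without DBZ replicate 2 and without any 1 of the vehicle replicates. That of Rbp7 was also lost without DBZ replicate 3, and that of Cyp26b1 without any 1 of the 6 arrays. With 64 added to each intensity, and with robust variance, neither Rbp7 nor Cyp26b1 passed. Calls were lost in 6 of 23 alternatives for Isx, 11 of 23 for Rbp7 and 11 of 21 for Cyp26b1.

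Further xenobiotic genes outside the families above came from a list of 45, of which 44 were measured, with a median of -0.15. Of these 3 fell (6.82%, against 1.52% of all genes) and 1 rose (2.27%, against 3.82%). Mgst1, a microsomal glutathione transferase, had 5272, 4179 and 4145 in DBZ arrays, against 7120.1, 8828 and 7879.9 in vehicle arrays, without overlap, at -0.81 ± 0.13 (SE, n = 3; limma, adjusted p = 0.031). Slco2b1, an uptake carrier of organic anions, averaged 248 ± 58.2 in DBZ and 451 ± 28.3 in vehicle arrays (SD, n = 3), at -0.84 ± 0.16 (SE; limma, adjusted p = 0.043). Cyp3a13, a P450 of the Cyp3a family, had 2998, 2549.7 and 2241 in DBZ arrays, against 3819, 3822 and 3612 in vehicle arrays, at -0.54 ± 0.11 (SE; limma, adjusted p = 0.0499). This value lies at the threshold, and its call was also lost with centred medians, an added intensity of 64, 3 of 4 other choices of probe set and robust variance (limma, adjusted p = 0.050 to 0.068). Its paralogues Cyp3a11 and Cyp3a25 differed more without passing. Cyp3a11 had 528, 415 and 51.7 in DBZ replicates 1, 2 and 3, against 1832, 2365 and 661 in vehicle replicates 1, 2 and 3, without overlap, at -2.52 ± 0.88 (SE; limma, adjusted p = 0.14). Cyp3a25 had 1768, 1017 and 222 in DBZ replicates 1, 2 and 3, against 2110.3, 3101 and 1654 in vehicle replicates 1, 2 and 3, which overlap, at -1.55 ± 0.73 (SE; limma, adjusted p = 0.24). In both paralogues DBZ replicate 3 was the lowest array. The one rise was that of Cyp1b1, a P450 known from stromal cells, at 188 ± 39.9 in DBZ and 84.8 ± 5.25 in vehicle arrays (SD, n = 3), or 1.00 ± 0.14 (SE; limma, adjusted p = 0.027). Cyp1b1 had 184, 151 and 230 in DBZ replicates 1, 2 and 3. The fibroblast and smooth muscle sums given above were also higher in every DBZ array, but were lowest of these in replicate 1, not replicate 2. Their part in the Cyp1b1 values was not tested. The calls of Mgst1, Slco2b1, Cyp3a13 and Cyp1b1 were lost without any 1 of the vehicle replicates, and those of the first 3 also without DBZ replicate 2 or 3.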

How the data were processed

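Total RNA of each sort was turned into biotin-marked copies with an Affymetrix 3' IVT Express kit, per the labels' protocols. The authors' deposited values are linear probe set intensities on a common level; the software behind them is not given in the sources used here. Array medians differed by 0.034 on the log2 scale, under the limit of 0.1, so values were kept. Of 45101 probe sets, 64 controls were left out, 34945 had 1 symbol, and 932 with several symbols were left out of gene tests. A gene was read from whichever of its probe sets had the greatest average log2(intensity + 16), and all 90 members were found in the RefSeq table by Entrez identifier.

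Groups were compared with limma 3.58.1 in R 4.3.3 (lmFit, eBayes, two-sided, prior of 2.21 degrees of freedom). On simulated arrays of 18193 genes the test found 91% of the genes given a log2 change of 1 and 99% of those given 2. There, 5.47% of its calls were false. The simulation gave each gene independent normal noise and changed few genes, with no deviation shared by the genes of an array. These shares therefore do not measure power or false calls in the real arrays. Above the median gene means a mean log2 value over 7.03 (intensity about 114). Precision is limited by there being 3 arrays in a group.

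Members, lists and motifs were chosen with earlier results of these data known. Named members are those past the test, in each role the 3 brightest and up to 3 with the largest change among genes with separate groups above the median gene, and 12 chosen by name. Of each list up to 4 genes past the test were named, or 2 by smallest p. Other members are given for their place beside these and were chosen after their values were seen. Alternatives covered normalization, pseudocount, dim genes, probe sets, variance model, array weights, replicate number as a block, threshold, ordinary t statistics and each array left out. Titles call the mice biological replicates, and no batch is given in the labels.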

Additional observations from a re-analysis of the deposited data

How the results depend on the processing

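The counts of members higher and lower in DBZ, 2 and 7 of 90, and the count over all genes, 972, stayed within 1.5 times under quantile normalization, median centring, every choice of probe set and robust variance, though with quantile normalization Ces1e no longer passed and Cyp2j6 did. With a pseudocount of 1 the test called 4 higher, with the median at -0.18, and with 64 it called 1 and 4 (440 over all genes), without Aldh1a2, Ces1e, Ces2g and Ugt2b5, with the median at -0.049. Limited to genes above the median gene it called 4 higher (median -0.31), and limited to genes with an intensity of 50 or more on 3 arrays 4 higher (median -0.29; 1531 over all genes). An intensity trend gave 4 higher, array weights 4 and 14 (2690), and a threshold of 0.1 gave 4 and 13 (2575). A threshold of 0.01 gave 0 and 0 (31), and ordinary t statistics 0 and 0 (0 over all genes, with 18 members at an unadjusted p under 0.05). With each array left out in turn the counts ran from 0 to 3 higher, 0 to 10 lower and 19 to 2032 over all genes, with the median between -0.13 and -0.078. The 9 genes past the test kept their sign in all settings. Reversals of members near 0 were these: Abcb1a was at -0.010 with quantile normalization and -0.30 to 0.29 with an array left out. Aldh1a3 was at -0.046 with quantile normalization, -0.023 with array weights and -0.14 to 0.12 with an array left out. Rdh14 was at -0.016 with quantile normalization, -0.11 as the mean of probe sets, -0.27 on its most variable one and -0.049 to 0.092 with an array left out. Abcc2 was at 0.23 and Rdh9 at 0.015 with array weights, Abcc2 at -0.67 to 0.15 and Cyp2c68 at -0.15 to 0.25 with an array left out. With the replicate number as a block 3 members were higher and 6 lower, with Ces1d and Ces1f called and Ces2g and Ugt2b5 not. Arrays sharing a number deviated together at correlations of -0.0086, 0.25 and 0.20. Arrays with different numbers did so at -0.29 to 0.014. The labels do not say that equal numbers are pairs, and the main test did not pair them. Whether replicates 2 and 3 were paired was not tested. The cause of these changes was not tested. Leaving out an array changes both the number of arrays and which values remain.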

Other observations

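Probe sets that the table assigns to several genes of these families were left out of the tests. The Ugt1a genes share most of their exons, and 3 probe sets are assigned to 8 of them together. The first of these had intensities of 1989, 1608 and 1514 in DBZ replicates 1, 2 and 3, against 2643, 3575 and 2801 in vehicle replicates 1, 2 and 3. All DBZ arrays lay below all vehicle arrays on each of the 3 probe sets, with log2 differences of -0.81, -0.79 and -0.83 and no test. They sit on the same side as the Ugt2b falls, and single Ugt1a genes cannot be read from them. A probe set assigned to Gsta1, Gsta2 and 1 further gene averaged 1055 ± 496 in DBZ and 1146 ± 568 in vehicle arrays (SD, n = 3), with overlapping groups.

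Some members had one order of arrays in both groups. Replicate 2 was highest and replicate 3 lowest in DBZ and in vehicle for 12 of 90 members (13.3%), against 2.28% of all genes, a pattern noticed in the data and described without a test. Among members above the median gene these were Abcb1a, Abcc2, Aldh1a1, Ces1f, Cyp2c55, Cyp2d26 and Rdh9. Cyp2c55 in replicate 2 was 16.8 times replicate 3 in DBZ arrays and 6.42 times in vehicle arrays, and Abcb1a 2.17 and 2.30 times. DBZ replicate 3 was the lowest DBZ array for 49 members (54.4%), against 40.0% of all genes.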
